A study of Sus scrofa with 4 samples.

Results

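The genes of cholesterol and fatty acid synthesis were read in sorted pig epidermal cells as a panel of 34 genes, in 2 arms. The sterol arm held 24 genes, namely enzymes of the pathway from acetyl-CoA to cholesterol (not all of them), proteins that control them, a lipoprotein receptor and a sterol carrier. The fatty acid arm held 10 genes, for the synthesis, elongation, desaturation and activation of fatty acids. The members were found by gene symbol, and 33 of the 34 were present among the 29837 named genes of the count table. IDI1, an isomerase of the mevalonate pathway, had no row under that symbol and was not analysed here. All 33 passed edgeR's filter on low counts and entered the test of 15980 genes.

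Cells came from the skin of 2 juvenile LGR5-H2B-GFP pigs, 88R and 95R, in which H2B-GFP (a histone joined to green fluorescent protein) was placed in exon 1 of an LGR5 allele by CRISPR/Cas9, while the other allele still makes LGR5. Both populations of both pigs carried this transgene, so no wild-type pig entered the comparison. The line was made from edited fetal fibroblast colonies by somatic cell nuclear transfer, and whether the 2 pigs were clones or their progeny is not given in the sources used here. Hair and epidermis were separated from the dermis, and live cells were sorted into an LGR5-high and an LGR5-negative population, giving 1 poly(A) RNA library of each population from each pig. GFP is driven by the LGR5 promoter and is diluted when cells divide, so the sort reads the recent history of the promoter as well as its present activity.

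Cholesterol is built from acetyl-CoA through mevalonate, the isoprenoid phosphates, squalene and lanosterol, and the last enzymes trim lanosterol to cholesterol. SREBP transcription factors, escorted by SCAP and held back by the INSIG proteins when sterols are plentiful, switch on the genes of both arms. In skin, keratinocytes make cholesterol and fatty acids for their membranes and for the lipid barrier of the upper epidermis, and sebaceous glands make lipid for secretion.

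The 4 libraries held between 30890232 and 32598670 counts, and the members took between 0.295% and 0.412% of the counts on named genes. Levels are in CPM, counts per 1000000 of a library size adjusted by TMM normalization, on which scale 3 counts equal 0.0873 to 0.105 CPM. They are not divided by transcript length, so levels are compared between libraries and not between genes. The sorted gene, LGR5, had 4551 and 36 counts in LGR5-high and LGR5-negative of pig 88R, and 6224 and 109 counts in those of pig 95R. The keratinocyte genes KRT5, TP63 and DSP were not called different between the populations and DSG3 was higher in LGR5-high, while KRT14 was not analysed here. Of 6 genes of differentiated epidermis, 5 were lower in LGR5-high, and their summed level was 5448 to 6006 CPM in LGR5-high and 56051 to 65238 CPM in LGR5-negative. Summed over 5 fibroblast genes, the level was 723 to 1005 CPM in LGR5-high and 226 to 336 CPM in LGR5-negative, with COL1A1 and COL1A2 higher and PDGFRA, LUM and DCN lower in LGR5-high. Other marker lists had lower sums in LGR5-high, with 31.6 to 35.9 against 58.1 to 221 CPM for melanocytes (3 of 4 genes called lower), 14.0 to 14.3 against 87.9 to 127 CPM for Langerhans and immune cells (3 of 5 called lower and AIF1 higher), and 4.71 to 6.63 against 17.1 to 18.6 CPM for endothelium (3 of 4 called lower). Nerve and Schwann cell genes summed to 7.77 to 13.8 CPM in LGR5-high and 3.19 to 8.67 CPM in LGR5-negative, with S100B higher and SOX10 lower. The part of these other cell types in the results on the members was not tested.

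Sebocytes and adipocytes, which make or store lipid, bear on the panel directly. Of 10 sebocyte genes, AWAT1 had 0 counts in all libraries, MC5R had 7 to 8 counts in LGR5-high and 1 in each LGR5-negative library, AWAT2 had 6 to 18 counts and CIDEA had 187 to 362 counts over the 4 libraries. Both LGR5-high libraries lay above both LGR5-negative libraries for 5 of the 10 (MC5R, ELOVL3, CIDEA, FAR2 and MGST1) and below them for KRT79. The same held for 39.2% and 37.4% of all tested genes. MC5R and ELOVL3 had too few counts to be tested. MGST1 was called higher and KRT79 lower, FAR2 was called higher with the pig as a replicate block (adjusted p = 0.0308 from edgeR), and ELOVL3 had 11 and 6 counts in LGR5-high and 0 in LGR5-negative. The 10 genes summed to 50.1 and 60.5 CPM in LGR5-high and 66.5 and 66.0 CPM in LGR5-negative of pigs 88R and 95R, and without KRT79, left out after its values were seen, the sums were 24.2 and 32.4 against 12.6 and 13.1 CPM. With all 10 genes the sum was thus lower in LGR5-high, and it was higher only with KRT79 left out. MGST1 was the largest contributor to that higher sum, at 14.1 and 17.2 against 3.44 and 4.96 CPM in the same order. The populations overlapped for AWAT2, for PPARG (9 and 6 counts against 2 and 14) and for PLIN5 (0 to 1 counts). The part of sebocytes in the results on the members was not tested. Of the 5 adipocyte genes, ADIPOQ had 0 counts in all libraries, PLIN1 had 1 to 3 and LEP 0 to 1, and the 5 genes summed to 0.756 to 1.19 CPM.

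Between the populations, 12 of the 33 members were called higher in LGR5-high and 2 were called lower by edgeR's quasi-likelihood test (Benjamini-Hochberg adjusted p under 0.05), and 19 were not called. Of all tested genes 22.7% were called higher and 22.0% lower, so that the share of members called higher, 36.4%, was above the share among all genes and the share called lower, 6.06%, was below it. The median log2 fold change was 0.34 over the members and 0.015 over all tested genes, while the median of its absolute value was 0.47 for both. The panel was chosen with earlier results of these data known, so such comparisons with all tested genes are descriptions and no test. The members called higher were MVK, LSS, TM7SF2, DHCR7, INSIG2, SCAP and STARD4 in the sterol arm and SCD, ELOVL6, FADS1, FADS2 and ACSL3 in the fatty acid arm. Those called lower were VLDLR and ACSL1. Fewer cells of a type and less RNA per cell cannot be told apart in these bulk samples.

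Both LGR5-high libraries lay above both LGR5-negative libraries for 17 of the 33 members and below them for 6. The same held for 39.2% and 37.4% of all tested genes, so the upward separation is above and the downward separation below the background, again as a description. Each pig gave both populations, and with the pig as a replicate block 17 members were called higher and 6 lower, beside 28.5% and 27.2% of all tested genes. All 14 calls made without the block were also made with it.

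**Figure D1:**
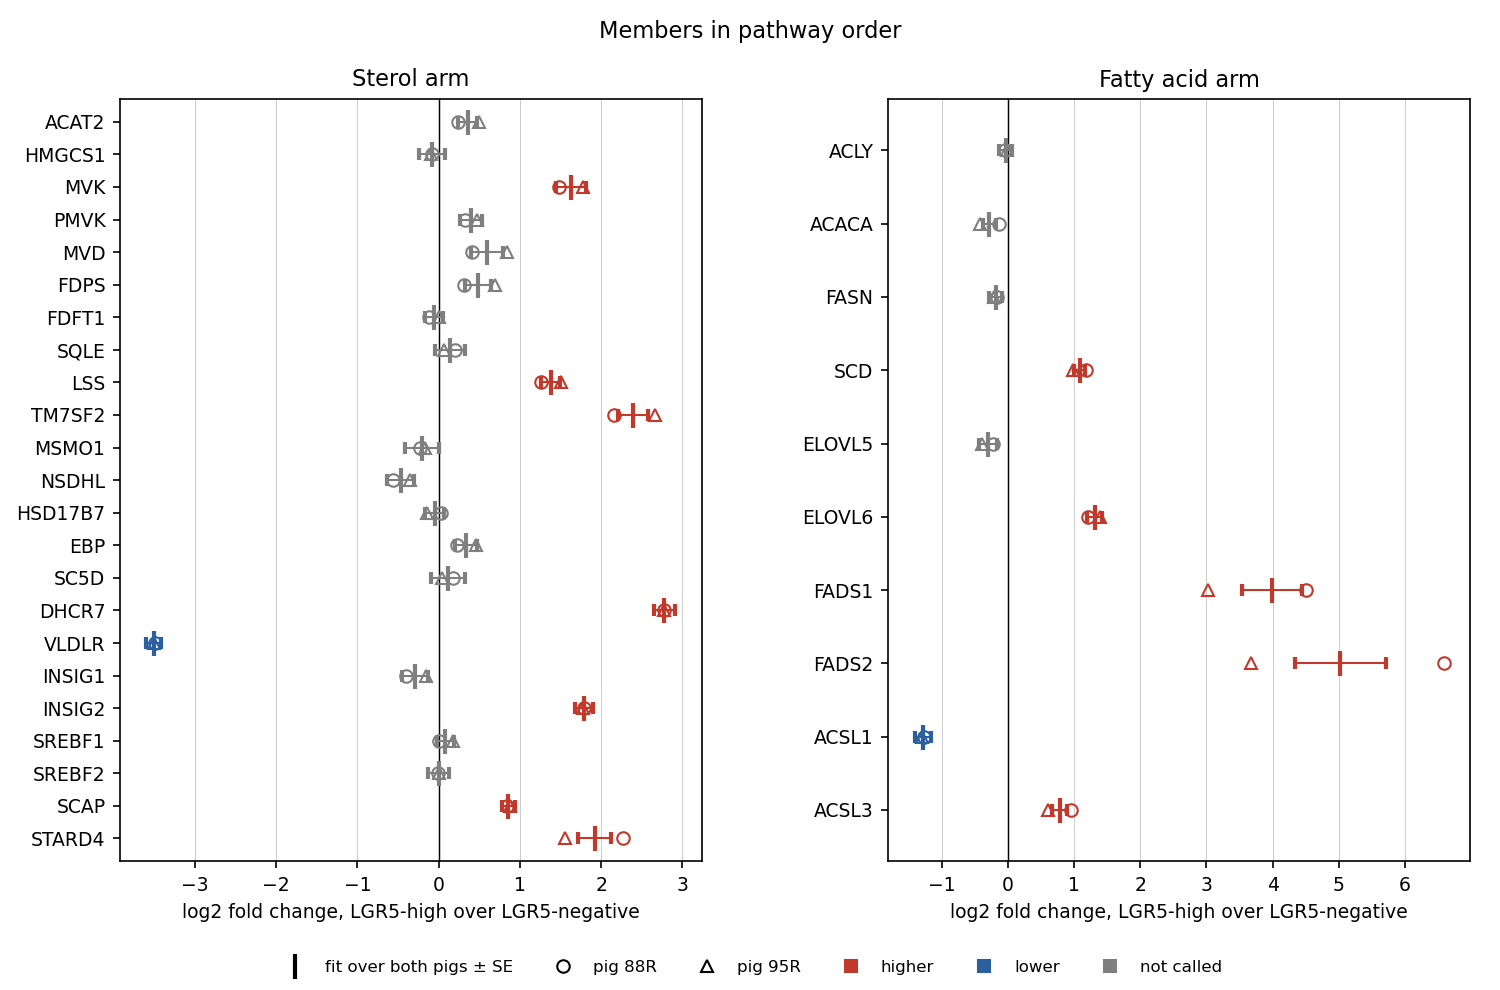
Log2 fold change of LGR5-high over LGR5-negative for the 33 members, in pathway order, for the sterol arm (left) and the fatty acid arm (right). Bars are the estimate over both pigs with its standard error, circles and triangles are pigs 88R and 95R alone, and red, blue and grey mark members called higher, called lower and not called. DHCR7 at 2.78, FADS1 at 3.99 and FADS2 at 5.02 lie far to the right and VLDLR at -3.51 far to the left.

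In the sterol arm, 7 of 23 members (30.4%) were higher in LGR5-high, 1 (4.35%) was lower and 15 were not called. Of all tested genes 22.7% were higher and 22.0% lower. The arm's median log2 fold change was 0.34. The calls did not run along the pathway as a block. Among the 16 enzymes 4 (25%) were called higher, a share near the 22.7% of all tested genes, and none was called lower. They were MVK early in the pathway, LSS at the closure of the sterol rings, and TM7SF2 and DHCR7 after it. Summed over the 16 enzymes, the level was 1377 and 1236 CPM in LGR5-high and 1101 and 871 CPM in LGR5-negative for pigs 88R and 95R, a ratio of means of 1.32.

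Of the 6 mevalonate pathway enzymes found, only MVK (16.7%, beside 22.7% of all tested genes called higher) was called in the test without the block. MVK, the kinase that adds the first phosphate to mevalonate, had 13.8 and 13.3 CPM in LGR5-high of pigs 88R and 95R and 4.91 and 3.84 CPM in LGR5-negative. Its means were 13.6 ± 0.332 and 4.38 ± 0.760 CPM (SD, n = 2 pigs), a 3.10-fold difference, and its log2 fold change was 1.63 (SE, standard error, 0.185, Benjamini-Hochberg adjusted p = 0.00132 from edgeR). The gap between the populations was far wider than that between the pigs. HMGCS1, which makes the HMG-CoA that enters the pathway and is a well known target of SREBP, had 177 and 139 CPM in LGR5-high and 187 and 149 CPM in LGR5-negative. Its populations overlapped, and pig 88R was above pig 95R in each.

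The other mevalonate enzymes lay close to the threshold. ACAT2, which joins acetyl-CoA units, had 266 and 259 CPM in LGR5-high against 226 and 183 CPM in LGR5-negative for pigs 88R and 95R. MVD, the decarboxylase, had 64.6 and 58.2 CPM against 48.7 and 32.5 CPM, and FDPS, which joins the isoprenoid units into farnesyl diphosphate, had 101 and 94.6 CPM against 80.9 and 58.2 CPM. In all of these the populations were separate, and the LGR5-negative library of pig 95R was the lowest. PMVK, the next kinase after MVK, had 14.4 and 15.8 CPM against 11.5 and 11.4 CPM. Log2 fold changes ran from 0.36 for ACAT2 to 0.60 for MVD, with adjusted p between 0.0507 for ACAT2 and 0.0533 for PMVK, so none of the 4 was called. With the replicate block all 4 were called higher, at adjusted p of 0.00314 for ACAT2, 0.0239 for PMVK, 0.000167 for MVD and 0.000407 for FDPS in edgeR's quasi-likelihood test. DESeq2 with the block called ACAT2, MVD and FDPS and not PMVK (adjusted p = 0.212), and DESeq2 without the block and limma-voom also called those 3 and not PMVK. Over all alternatives the adjusted p of these genes reached 1 under Bonferroni adjustment, and the lowest were 0.00314, 0.0118, 0.000167 and 0.000407 in the same order.

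From farnesyl diphosphate to cholesterol, 3 of 10 enzymes (30%) were higher, none was lower and 7 were not called. Of all tested genes 22.7% were higher and 22.0% lower. FDFT1, which makes squalene, had 78.4 and 71.7 CPM in LGR5-high and 85.1 and 71.6 CPM in LGR5-negative for pigs 88R and 95R. SQLE, the epoxidase that follows and a slow step of the pathway, had 167 and 120 CPM against 145 and 115 CPM. The populations overlapped for both of these enzymes. The next enzyme, LSS, closes the epoxide into lanosterol, and it had 216 and 211 CPM in LGR5-high and 90.3 and 73.9 CPM in LGR5-negative. LSS was 2.60-fold higher in LGR5-high, with a log2 fold change of 1.38 (SE 0.114, adjusted p = 0.000459 from edgeR), of 1.26 in pig 88R and 1.51 in pig 95R.

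TM7SF2, a sterol reductase acting soon after lanosterol, had 46.9 and 46.3 CPM in LGR5-high and 10.5 and 7.28 CPM in LGR5-negative for pigs 88R and 95R. Its log2 fold change was 2.39 (SE 0.186, adjusted p = 0.000371 from edgeR), a 5.26-fold difference of means. DHCR7, the reductase that converts the immediate precursor into cholesterol and thereby competes with vitamin D formation in skin, had 52.8 and 60.7 CPM in LGR5-high and 7.69 and 8.84 CPM in LGR5-negative. In means this was 56.7 ± 5.56 against 8.26 ± 0.813 CPM (SD, n = 2), 6.86-fold higher, with a log2 fold change of 2.78 (SE 0.135, adjusted p = 0.000102 from edgeR). Both pigs gave a log2 fold change of 2.77 for DHCR7 on their own.

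The enzymes between TM7SF2 and DHCR7 did not share these changes as called genes. MSMO1, which acts in the removal of methyl groups, had 80.8 and 59.8 CPM in LGR5-high and 94.6 and 67.0 CPM in LGR5-negative for pigs 88R and 95R. NSDHL, the dehydrogenase of the same removal, had 32.6 and 27.9 CPM against 48.1 and 35.7 CPM, with both LGR5-high libraries the lower ones. HSD17B7, which acts with NSDHL, had 23.4 and 20.7 CPM against 22.9 and 22.8 CPM, and SC5D, a desaturase, had 16.0 and 11.6 CPM against 14.2 and 11.3 CPM. MSMO1, HSD17B7 and SC5D overlapped between the populations. EBP, an isomerase of the sterol ring, had 27.4 and 26.8 CPM against 23.5 and 19.4 CPM and was separate. NSDHL (log2 fold change -0.47, adjusted p = 0.0698) and EBP (0.34, adjusted p = 0.0852) were not called by edgeR. With the replicate block NSDHL was called lower (adjusted p = 0.00196) and EBP higher (adjusted p = 0.0237) by edgeR. DESeq2 with the block also called NSDHL lower (adjusted p = 0.0193) but did not call EBP (adjusted p = 0.173). Over all alternatives the adjusted p of the 2 genes ran from 0.00196 and 0.0153 up to 1.

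The unequal change along the pathway can be read inside each library as a ratio of raw counts, which needs no scaling between libraries. These pairs were chosen after the values were seen and were not tested. Per HMGCS1 count, DHCR7 had 0.298 and 0.437 counts in LGR5-high of pigs 88R and 95R and 0.0411 and 0.0595 in LGR5-negative, a difference of 7.25-fold and 7.36-fold. TM7SF2 per HMGCS1 was 0.264 and 0.334 against 0.0559 and 0.0490. LSS per SQLE, neighbours in the pathway, was 1.29 and 1.75 against 0.622 and 0.640. In each of these pairs the later enzyme was a called member, and its share was larger in LGR5-high than in LGR5-negative in both pigs. This did not hold for late enzymes in general. Log2 fold changes were -0.47 for NSDHL, -0.20 for MSMO1, -0.05 for HSD17B7, 0.12 for SC5D and 0.34 for EBP, none of them called. The early enzyme MVK had 1.63.

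**Figure D2:**
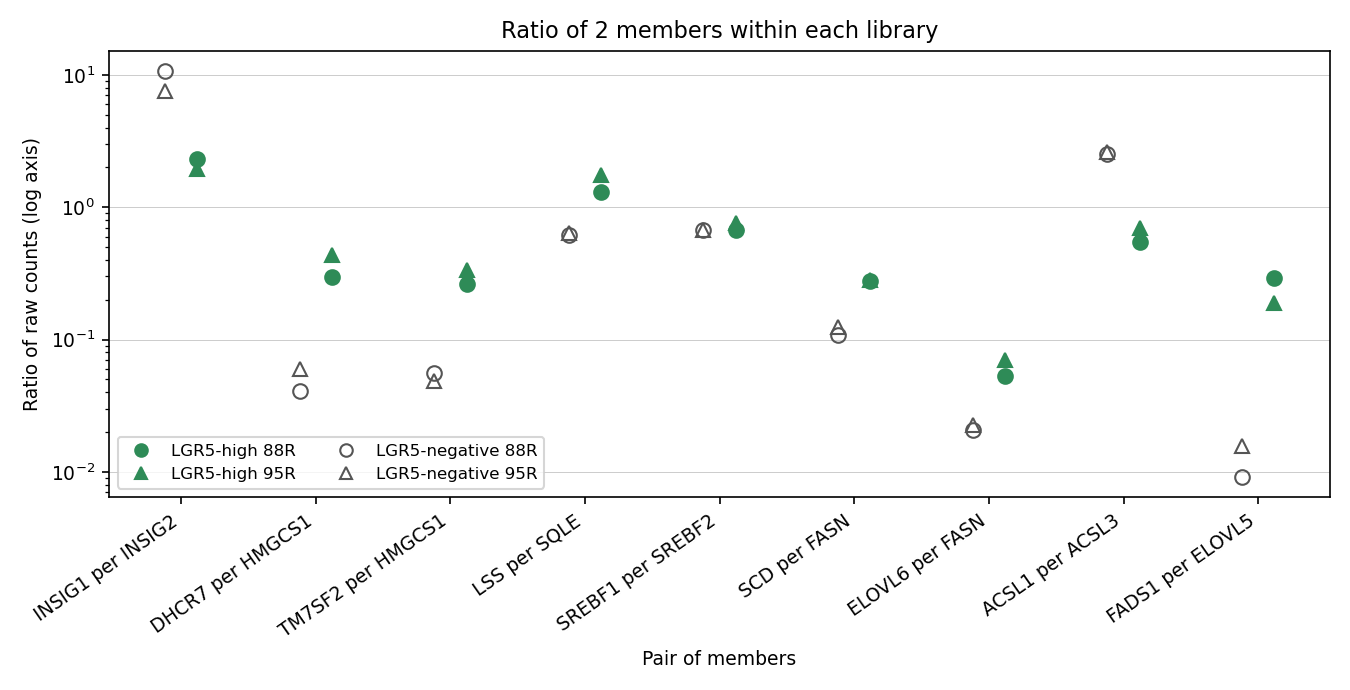
Ratio of the raw counts of 2 members within each library, on a log axis, for 9 pairs. Filled green symbols are LGR5-high and open symbols LGR5-negative, with circles for pig 88R and triangles for pig 95R, and SREBF1 per SREBF2 is the pair whose values lie closest together, from 0.672 to 0.759.

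The controllers of the pathway changed unequally as well. SREBF2, which encodes the SREBP that mainly drives cholesterol synthesis, had 326 and 273 CPM in LGR5-high and 327 and 273 CPM in LGR5-negative for pigs 88R and 95R. SREBF1, whose products mainly drive fatty acid synthesis, had 219 and 208 CPM against 220 and 184 CPM. Neither was called, at adjusted p of 0.993 and 0.569 from edgeR, and the populations overlapped. RNA levels of these genes do not measure the cleaved, active proteins.

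SCAP, which escorts SREBP to its cleavage, was higher, with 158 and 168 CPM in LGR5-high and 88.1 and 91.4 CPM in LGR5-negative for pigs 88R and 95R. Its log2 fold change was 0.86 (SE 0.0787, adjusted p = 0.000641 from edgeR), and it was 0.84 and 0.88 in the 2 pigs. The proteins that hold SCAP back when sterols are plentiful differed from each other. INSIG2 had 36.7 and 38.1 CPM in LGR5-high and 10.6 and 11.1 CPM in LGR5-negative, a log2 fold change of 1.79 (SE 0.111, adjusted p = 0.000190 from edgeR) and 3.45-fold in means. INSIG1, itself a target of SREBP, had 85.4 and 74.6 CPM against 113 and 83.3 CPM, with a log2 fold change of -0.29 (adjusted p = 0.185). INSIG1 was called lower with the replicate block (adjusted p = 0.0177 from edgeR, and 0.0177 to 1 over all alternatives), while DESeq2 with the block did not call it (adjusted p = 0.0829). Per INSIG2 count there were 2.33 and 1.96 INSIG1 counts in LGR5-high and 10.7 and 7.51 in LGR5-negative. RefSeq lists 2 loci under the symbol INSIG2, and 1 of them overlaps PDE8A, whose own counts were 569 and 579 in LGR5-high and 959 and 1022 in LGR5-negative.

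VLDLR, a receptor that takes up triglyceride-rich lipoproteins and also binds reelin, was the only sterol arm member called lower. It had 13.7 and 12.9 CPM in LGR5-high of pigs 88R and 95R and 155 and 147 CPM in LGR5-negative. The means of 13.3 ± 0.549 and 151 ± 5.25 CPM (SD, n = 2) were 11.4-fold apart, with a log2 fold change of -3.51 (SE 0.0902, adjusted p = 3.93e-05 from edgeR). The spread between the pigs was small in both populations. STARD4, a soluble carrier that moves sterol between membranes, had 21.6 and 16.9 CPM in LGR5-high and 4.46 and 5.72 CPM in LGR5-negative. Its log2 fold change was 1.92 (SE 0.204, adjusted p = 0.00107 from edgeR), 2.26 in pig 88R alone and 1.55 in pig 95R.

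In the fatty acid arm, 5 of 10 members (50%) were higher in LGR5-high, 1 (10%) was lower and 4 were not called. Of all tested genes 22.7% were higher and 22.0% lower. The arm's median log2 fold change was 0.37. None of the 3 genes of de novo synthesis was called, and 4 of the 5 genes of elongation and desaturation were called higher. Of the 2 activation genes, ACSL3 was called higher and ACSL1 lower. The 4 include FADS1 and FADS2, which had few counts in LGR5-negative and passed edgeR's filter through their LGR5-high libraries. A filter of at least 10 counts in every library left both out. The arm's median was then -0.080, and the 3 members called higher were SCD, ELOVL6 and ACSL3. Of 14105 genes tested with that filter, 3089 were called higher. Summed over the genes, de novo synthesis had 1091 and 988 CPM in LGR5-high of pigs 88R and 95R and 1204 and 1132 CPM in LGR5-negative. Elongation and desaturation had 320 and 297 CPM against 154 and 159 CPM, a ratio of means of 1.97.

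ACLY, which releases acetyl-CoA from citrate in the cytosol, had 189 and 173 CPM in LGR5-high and 196 and 175 CPM in LGR5-negative for pigs 88R and 95R. ACACA, the carboxylase that makes malonyl-CoA, had 77.7 and 73.0 CPM against 84.9 and 97.9 CPM. FASN, the synthase that builds palmitate, had 824 and 742 CPM against 923 and 859 CPM. ACLY overlapped, and ACACA and FASN were lower in both LGR5-high libraries without being called (log2 fold changes of -0.28 and -0.19, adjusted p = 0.0671 and 0.160 from edgeR). Of the 3 genes ACACA had an unadjusted p under 0.05, of 0.0327, and neither DESeq2 nor limma-voom called any of them. ACACA was called lower with the replicate block (adjusted p = 0.0226 from edgeR, and 0.0226 to 1 over all alternatives), while DESeq2 with the block did not call it (adjusted p = 0.105).

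SCD, which makes oleate and palmitoleate from saturated fatty acids, had 228 and 211 CPM in LGR5-high and 100 and 107 CPM in LGR5-negative for pigs 88R and 95R. Its means of 220 ± 12.4 and 104 ± 4.52 CPM (SD, n = 2) gave a 2.12-fold difference and a log2 fold change of 1.08 (SE 0.0852, adjusted p = 0.000388 from edgeR). ELOVL6, which lengthens palmitate to stearate, had 44.0 and 51.6 CPM against 19.0 and 19.5 CPM, a log2 fold change of 1.31 (SE 0.118, adjusted p = 0.000607 from edgeR). Both genes were separate between the populations by much more than the pigs differed. Per FASN count, SCD had 0.277 and 0.284 counts in LGR5-high and 0.109 and 0.124 in LGR5-negative, and ELOVL6 had 0.0534 and 0.0695 against 0.0206 and 0.0227. ELOVL5, which lengthens polyunsaturated fatty acids, had 29.5 and 24.0 CPM against 34.3 and 31.5 CPM and was not called (log2 fold change -0.30, adjusted p = 0.123). With the replicate block ELOVL5 was called lower (adjusted p = 0.0317, and 0.0317 to 1 over all alternatives), while DESeq2 with the block did not call it (adjusted p = 0.173).

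The desaturases of polyunsaturated fatty acids, FADS1 and FADS2, had few counts in LGR5-negative. FADS1 had 294 and 149 counts in LGR5-high of pigs 88R and 95R and 9 and 15 in LGR5-negative, or 8.55 and 4.51 CPM against 0.316 and 0.496 CPM. FADS2 had 323 and 207 counts against 1 and 13, or 9.40 and 6.27 CPM against 0.0351 and 0.430 CPM. Both genes were separate between the populations, and their LGR5-high levels were higher in pig 88R than in pig 95R. The ratio of LGR5-high to LGR5-negative CPM of FADS1 was 27.1 in pig 88R (95% exact interval 14.1 to 59.8) and 9.09 in pig 95R (5.33 to 16.6). For FADS2 it was 268 in pig 88R (47.7 to 10608), which rests on 1 count, and 14.6 in pig 95R (8.33 to 27.8), and these intervals cover counting error only. The log2 fold changes over both pigs were 3.99 (SE 0.456, adjusted p = 0.00138) for FADS1 and 5.02 (SE 0.691, adjusted p = 0.00272) for FADS2 in edgeR. Without the LGR5-negative library of pig 88R the log2 fold change of FADS2 was 4.17, and without that of pig 95R it was 7.64. FADS1 and FADS2 were left out by a filter asking for at least 10 counts in every library. FADS1 kept a log2 fold change between 3.45 and 4.38 when each library was left out in turn.

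The 2 acyl-CoA synthetases of the panel, which activate free fatty acids by joining them to CoA, moved in opposite directions. Outside the panel, the synthetases ACSL4 (log2 fold change -0.76) and ACSL5 (-1.01) were called lower. ACSL1 had 52.5 and 61.1 CPM in LGR5-high of pigs 88R and 95R and 126 and 151 CPM in LGR5-negative, a log2 fold change of -1.28 (SE 0.126, adjusted p = 0.000809 from edgeR). ACSL3, which also acts in the formation of lipid droplets, had 96.1 and 88.0 CPM against 49.6 and 57.7 CPM, a log2 fold change of 0.78 (SE 0.107, adjusted p = 0.00268 from edgeR). Per ACSL3 count there were 0.546 and 0.694 ACSL1 counts in LGR5-high and 2.54 and 2.62 in LGR5-negative, so the more counted of the pair was ACSL3 in LGR5-high and ACSL1 in LGR5-negative.

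**Figure D3:**
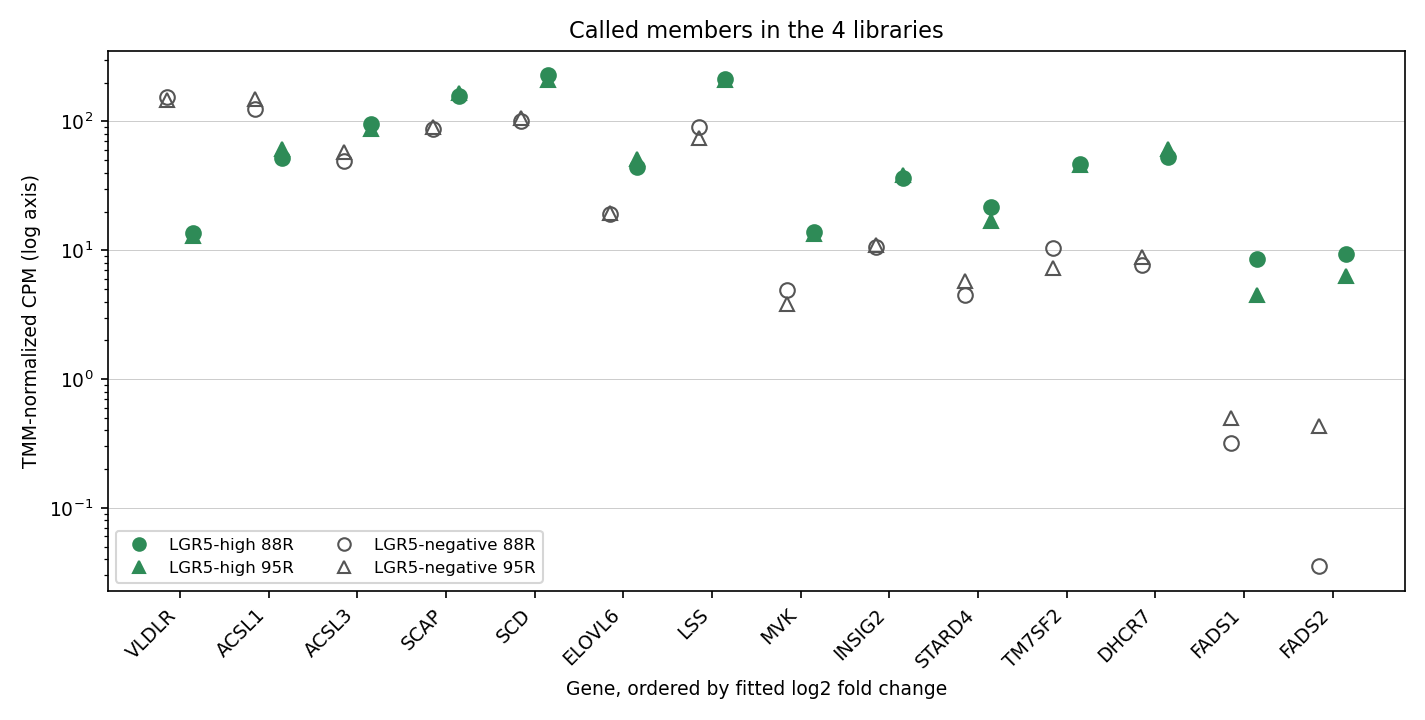
CPM of the 14 called members in each library, on a log axis, ordered from the lowest to the highest log2 fold change. Filled green symbols are LGR5-high and open symbols LGR5-negative, with circles for pig 88R and triangles for pig 95R, and no member overlaps between the populations. The lowest point is FADS2 in the LGR5-negative library of pig 88R, at 0.0351 CPM and 1 count.

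The members at least 2-fold apart were 10 of the 12 called higher, without SCAP and ACSL3, and both of those called lower. In the plot of log2 fold change against level, FADS1 and FADS2 are the members with the fewest counts and FASN is the one with the most.

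**Figure D4:**
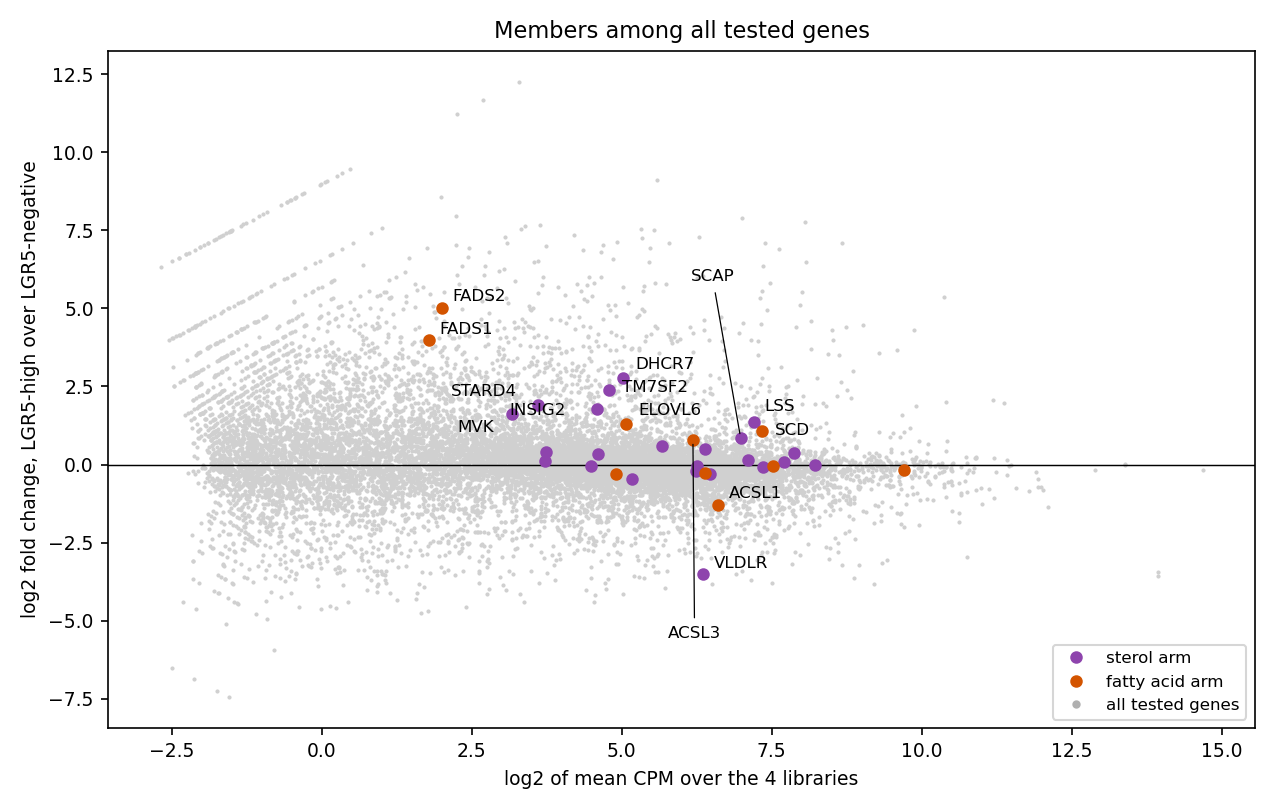
Log2 fold change of LGR5-high over LGR5-negative against log2 of the mean CPM over the 4 libraries, for 15980 tested genes in grey, the sterol arm in purple and the fatty acid arm in orange, with the called members named. VLDLR lies lowest among the members at -3.51 and FADS2 highest at 5.02.

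The pigs also differed, in the same direction in both populations for much of the sterol arm. For 14 of its 16 enzymes, pig 88R had the higher CPM in LGR5-high and in LGR5-negative, against 4392 (27.5%) of all tested genes. The exceptions were DHCR7, higher in pig 95R in both, and PMVK, which differed in direction. In LGR5-high and LGR5-negative the ratio of pig 88R to pig 95R was 1.28 and 1.26 for HMGCS1, 1.38 and 1.26 for SQLE, 1.35 and 1.41 for MSMO1 and 1.19 and 1.20 for SREBF2. For other enzymes the pigs were nearly equal in one of the populations. The ratio was 1.01 and 1.44 for TM7SF2, 1.02 and 1.22 for LSS and 1.02 and 1.21 for EBP. It was 1.03 and 1.23 for ACAT2 and 1.13 and 1.003 for HSD17B7. In the fatty acid arm pig 88R was higher in both populations for 3 of 10 genes, namely ACLY, FASN and ELOVL5. This pattern was noticed after the values were seen, and with 2 pigs it is a description with no test.

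**Figure D5:**
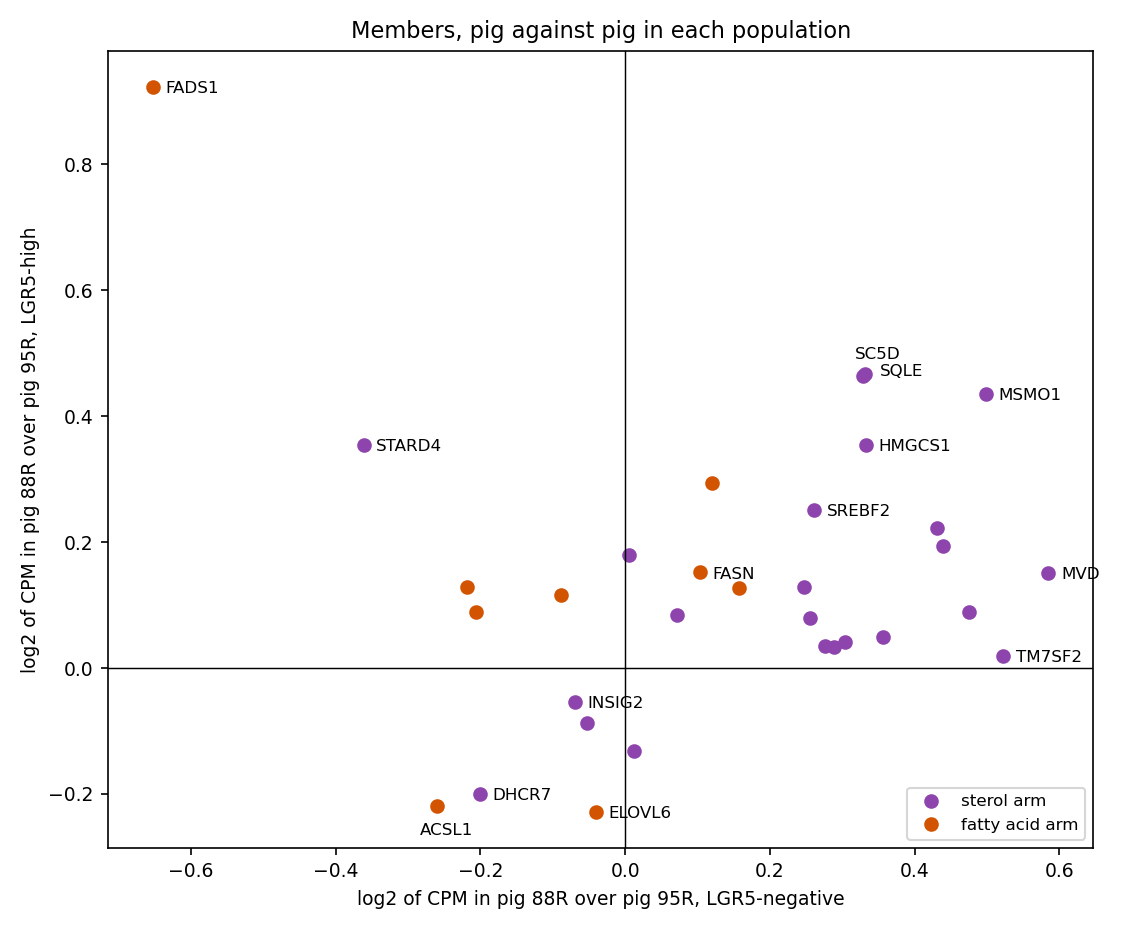
Log2 of the CPM of pig 88R over pig 95R in LGR5-high (vertical) against the same in LGR5-negative (horizontal), for 32 of the 33 members, with the sterol arm in purple and the fatty acid arm in orange. FADS2 is not drawn because its LGR5-negative library of pig 88R held 1 count, and most sterol arm genes lie in the upper right, where pig 88R is higher in both populations.

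Other genes of the same pathways, outside the panel, were called in both directions. Of 19 further genes of sterol handling found, 5 (26.3%) were higher and 4 (21.1%) lower in LGR5-high, shares near the 22.7% and 22.0% of all tested genes, with a median log2 fold change of -0.022. SOAT1, which esterifies cholesterol for storage, had a log2 fold change of 2.24, LRP8, a receptor related to VLDLR, had 1.44, and the sterol-binding membrane protein TMEM97 had 1.05. SOAT1 had few counts, with 124 and 88 in LGR5-high of pigs 88R and 95R and 12 and 27 in LGR5-negative. MYLIP, a ubiquitin ligase that removes lipoprotein receptors including VLDLR, had -1.32, the lysosomal sterol exporter NPC1 had -0.98 and the lipoprotein receptor SCARB1 had -0.91. LRP8 thus lay on the other side of 0 from VLDLR, with 678 and 548 counts in LGR5-high of pigs 88R and 95R and 201 and 190 in LGR5-negative. ERG28 was not analysed here.

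Of 23 further genes of fatty acid metabolism, 5 (21.7%) were higher and 7 (30.4%) lower in LGR5-high, beside 22.7% and 22.0% of all tested genes, with a median log2 fold change of -0.10. FADS3, a relative of FADS1 and FADS2, had a log2 fold change of 2.92, the desaturase SCD5 had 2.56, and AGPAT2, an acyltransferase of phospholipid and triglyceride synthesis, had 1.61. Counts in LGR5-negative of pigs 88R and 95R were few for FADS3 (7 and 15, against 85 and 106 in LGR5-high) and SCD5 (23 and 35, against 163 and 229). DGAT2, the last enzyme of triglyceride synthesis, had -2.87, the acyl-CoA synthetase ACSL5 had -1.01 and ELOVL1, which lengthens saturated fatty acids to very long chains, had -0.89.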

How the data were processed

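For each of 4 poly(A) libraries the authors deposited raw read counts by gene symbol, not normalized. The submitters' processing notes name Trimmomatic 0.36, STAR 2.5.2b and featureCounts of Subread 1.5.2, with no role or order. The genome build and the strand setting are not given in the sources used here, and 4 of the 33 members overlap a protein-coding gene in RefSeq's Sscrofa11.1 (ACAT2 and TCP1, PMVK and KCNN3, INSIG2 and PDE8A, ACACA and C12H17orf78), so their counts may be shared. An entry without a name, 0.360% to 0.626% of counts, was left out. Genes with low counts were removed by edgeR's own filter, set to 10 for a library and 15 over all libraries. The first limit did not have to be met in every library, so FADS2 passed with 1 count in LGR5-negative of pig 88R. Counts were then TMM-normalized and compared with edgeR 4.0.16 in R 4.3.3 (quasi-likelihood test, Benjamini-Hochberg adjustment, threshold 0.05). Values for single pigs used a prior count of 2.

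Replicate numbers are the pigs, 2 per population, and the 2 libraries of a pig deviated together from the population means (correlation 0.370), so the pig was also used as a block. Separate animals are the replicates, and a 2 against 2 permutation test cannot go below a two-sided p of 0.333. The alternatives used other scalings, filters and adjustments, DESeq2 1.42.0, limma 3.58.1, Student's t-test, which the study's methods name, here on log2(CPM + 1), and leaving out each library.

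All panel genes were named, with, from each of the 2 lists of other pathway genes, up to 3 called genes with the largest change in each direction. ACSL4 was named in addition, as a relative of ACSL1 and ACSL3. The panel and the lists were chosen with earlier results of these data known. Pairs for ratios were chosen after the values were seen.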

Additional observations from a re-analysis of the deposited data

How the results depend on the processing

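Over 33 members and 16 alternatives there were 526 values, of which 431 kept direction and side of the threshold, 25 lost the call, 41 gained one and 29 changed sign. No called member changed sign. DHCR7 and VLDLR were called under all 16 alternatives. Student's t-test on log2(CPM + 1) kept DHCR7, VLDLR and INSIG2 and lost the other 11 calls, Bonferroni adjustment kept DHCR7 and VLDLR and lost 12, and asking for 2-fold lost SCAP and ACSL3.

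The t-test called 544 genes higher and 502 lower, with 2 sterol members higher and 0 fatty acid members in either direction, although 6 of the latter had an unadjusted p under 0.05. Bonferroni adjustment of edgeR's p left 194 and 130 genes, 1 sterol member higher and 0 fatty acid members, of which 7 had an unadjusted p under 0.05. With 2-fold as well, 2339 genes were higher and 1505 lower. Library size only gave 5473 and 2326 genes, raising the share called higher from 50.9% to 70.2% (59.4% with upper quartile scaling), and moved the median of all genes to 0.24 (0.11 with upper quartile scaling), of the sterol arm to 0.56 and of the fatty acid arm to 0.60. Both scalings called 12 sterol members higher, and upper quartile scaling called 4292 of all tested genes higher and 2929 lower. At least 10 counts in every library gave 11 sterol and 3 fatty acid members higher. Of the 14105 genes tested with that filter, 3089 were higher and 3104 lower. The fatty acid median was -0.080, since FADS1 and FADS2 were not tested. The replicate block called 12 sterol members higher and 3 lower and 3 fatty acid members lower, the 9 added calls being those given in the text, and changed no other member's call. Of these 9 calls, DESeq2 with the block made 4 (ACAT2, MVD, FDPS and NSDHL). DESeq2, with and without the block, called 2 sterol members lower, beside 3146 and 3387 of all tested genes.

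When each library was left out in turn, between 2279 and 3169 genes were higher and 2139 to 3004 lower, the smallest counts being without the LGR5-high library of pig 95R, and without that of pig 88R 2340 were higher. Sterol members called higher ran from 7 to 11 (11 without the LGR5-negative library of pig 88R, adding ACAT2, MVD, FDPS and EBP). Sterol members called lower ran from 1 to 3 (3 without the LGR5-negative library of pig 95R, adding NSDHL and INSIG1). Fatty acid members called lower ran from 1 to 2 (2 without the LGR5-negative library of pig 88R, adding ACACA). The cause of these shifts was not tested.

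The sign changes fell on uncalled members near 0. With upper quartile scaling the log2 fold change was 0.0060 for HMGCS1, 0.033 for FDFT1, 0.043 for HSD17B7, 0.092 for SREBF2 and 0.060 for ACLY. With library size only it was 0.14 for HMGCS1, 0.16 for FDFT1, 0.025 for MSMO1, 0.17 for HSD17B7, 0.22 for SREBF2, 0.19 for ACLY and 0.038 for FASN. With at least 10 counts in every library SREBF2 had 0.029. With each library left out it ran from -0.12 to 0.36 for SQLE, -0.14 to 0.33 for SC5D, -0.29 to 0.083 for HMGCS1, -0.19 to 0.061 for FDFT1, -0.44 to 0.063 for MSMO1, -0.15 to 0.041 for HSD17B7, -0.050 to 0.21 for SREBF1, -0.14 to 0.13 for SREBF2 and -0.12 to 0.040 for ACLY.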
